A study of Mus musculus with 15 samples.

Results

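The genes described are 9 of the VEGF and PEDF system, chosen by symbol: the ligands Vegfa, Vegfb, Vegfc and Pgf, the receptors Flt1 and Kdr, the co-receptors Nrp1 and Nrp2, and Serpinf1, which encodes PEDF. All 9 were present among the 46078 genes of the deposited count table. Expression was measured by RNA sequencing in retinal pigment epithelium (RPE) isolated from female mice at postnatal day 14, at 2 hours after light onset. The 15 libraries were 4 Mertk WT, 4 Mertk KO, 4 Bai1 Tg neg and 3 Bai1 Tg pos, named for a knockout of the receptor tyrosine kinase gene Mertk and for a Bai1 transgene. Both Bai1 groups carried wild-type Mertk, and every library had 1 strain label, a mix of c57Bl/6J with B6;129-Mertktm1Grl/J. The labels name no promoter or cell type for the transgene and leave it unstated whether each library is a separate animal. The p-values therefore rest on library-to-library spread, part of which may be technical.

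VEGF proteins are secreted growth factors of blood and lymph vessels. VEGF-A, VEGF-B and placental growth factor bind the tyrosine kinase receptor VEGFR1, encoded by Flt1, and VEGF-A signals in endothelium mainly through VEGFR2, encoded by Kdr. VEGF-C acts through VEGFR3 and, after processing, through VEGFR2, while neuropilins hold VEGF ligands close to these receptors and also bind class 3 semaphorins. In the eye, the RPE secretes VEGF-A towards the choriocapillaris, the capillary bed behind it, and PEDF is an inhibitor of vessel growth that is also made by RPE. Bai1, with the gene symbol Adgrb1, takes its name from brain-specific angiogenesis inhibitor, and Mertk serves the uptake of shed photoreceptor outer segments.

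The RPE marker Rpe65 was at 4175 to 6667 CPM (counts scaled to library size with TMM factors over all libraries). Of 16 endothelium markers, 14 had a median under 1 CPM, among them Pecam1, at 1.46 CPM at most, and Cdh5, with 0 counts in 9 of 15 libraries. Ramp2 was at 92.6 to 195 CPM and Egfl7 at 1.45 to 4.57 CPM. The level of Mertk itself was 155 to 196 CPM in the 4 Mertk KO libraries and 233 to 262 in the 4 Mertk WT libraries, a log2 fold change of -0.48 with an edgeR adjusted p of 0.0461. Adgrb1 was 166 to 169.9 CPM in Bai1 Tg pos and 0 to 0.142 CPM in replicates 1 to 3 of Bai1 Tg neg. It was 144 CPM in the library labelled Bai1 Tg neg 4, against its label. Rod markers had a mean log2 CPM of 5.34 to 7.21 in the Mertk libraries and 2.85 to 5.01 in the Bai1 libraries. Total counts ran from 9591129 to 20024507 per library, so that 3 counts, the floor used here, correspond to 0.150 to 0.313 CPM.

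Vegfa was the highest member in every library. Levels of different genes are compared in TPM, which divides counts by gene length before scaling to library size. Vegfa (ENSMUSG00000023951, chromosome 17, 46016993 to 46032377, minus strand, GRCm38) had a mean of 805 TPM and ranked 128 of 46078 genes. It was followed by Vegfb at 164, Vegfc at 46.4, Pgf at 28.4, Nrp2 at 11.1, Serpinf1 at 5.15, Kdr at 2.85, Flt1 at 1.26 and Nrp1 at 0.362 TPM. Ranges over the 15 libraries did not overlap between Vegfa and Vegfb, between Vegfb and Vegfc, between Pgf and Nrp2, or between Nrp2 and Serpinf1. The other neighbours overlapped: Vegfc was above Pgf in 13 of 15 libraries, Serpinf1 above Kdr in 13, Kdr above Flt1 in 15 and Flt1 above Nrp1 in 14. In TPM the 4 ligands thus held the first 4 places, and PEDF and the receptor kinases were lower. This order rests on the deposited gene lengths, 11842 bases for Nrp2 against 1881 for Vegfc and 1582 for Pgf. In mean CPM, which ignores length, Vegfa and Vegfb stayed highest. Nrp2, at 44.0 CPM, was there above Vegfc at 29.3 and Pgf at 15.1, and Kdr, at 8.62, was above Serpinf1 at 4.08.

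**Figure D1:**
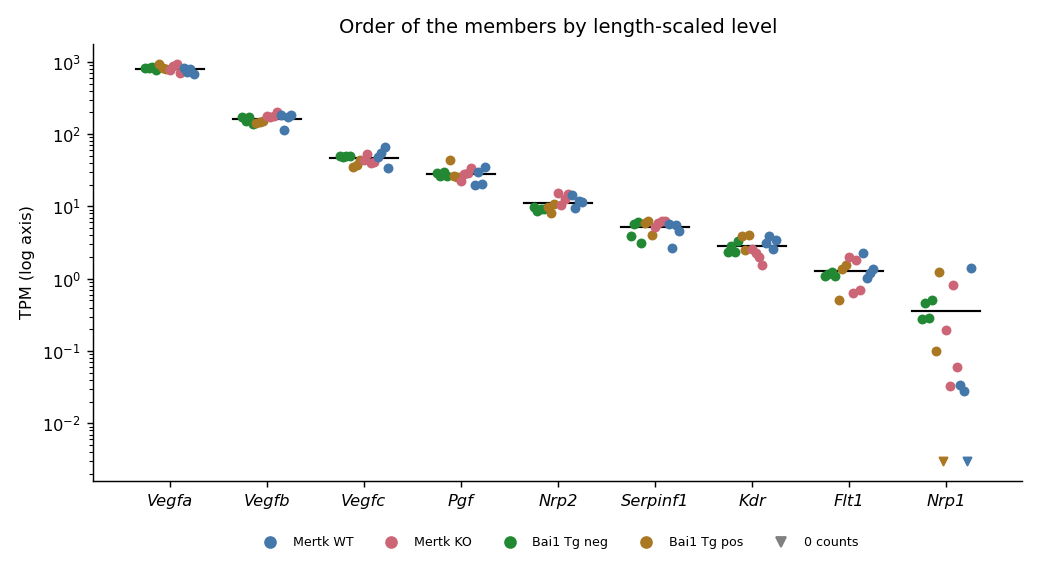
TPM on a log axis (y) of the 9 members (x), with 1 point per library coloured by group, triangles at the foot of the plot for libraries with 0 counts and bars for the mean over 15 libraries. The 4 ligands lie above every receptor, Vegfa near 805 TPM, and Nrp1 spreads from 0 to 1.42 TPM.

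Vegfa, whose product is the principal vessel growth factor of the family, was 962 to 1187 CPM in Mertk WT, 1012 to 1386 in Mertk KO, 1100.3 to 1225 in Bai1 Tg neg and 1161 to 1346 in Bai1 Tg pos. All groups overlapped. The coefficient of variation within groups was 10.1%, and counting error alone would give 0.748%. The sequence before its start is shown because it is the most abundant member and is set beside Zfp36, the gene whose library-to-library pattern was most like it (described further on). The sequences are RefSeq promoters of GRCm38.p6, 250 bases up to the annotated start, 5′ to 3′ on the gene's strand: Vegfa at chr17:46032378-46032627 (minus) and Zfp36 at chr7:28379229-28379478 (minus). Capitals mark the GC box GGGCGG, the core motif of hypoxia-inducible factors (ACGTG or GCGTG), the E-box form bound by MITF (CACGTG or CATGTG, the first of which contains ACGTG) and the CArG box of serum response factor, each searched on both strands.
Vegfa: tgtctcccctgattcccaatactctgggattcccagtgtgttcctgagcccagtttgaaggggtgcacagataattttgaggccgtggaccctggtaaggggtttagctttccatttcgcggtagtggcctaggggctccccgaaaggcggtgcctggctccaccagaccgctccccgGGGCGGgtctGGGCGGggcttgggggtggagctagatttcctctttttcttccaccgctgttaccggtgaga
Zfp36: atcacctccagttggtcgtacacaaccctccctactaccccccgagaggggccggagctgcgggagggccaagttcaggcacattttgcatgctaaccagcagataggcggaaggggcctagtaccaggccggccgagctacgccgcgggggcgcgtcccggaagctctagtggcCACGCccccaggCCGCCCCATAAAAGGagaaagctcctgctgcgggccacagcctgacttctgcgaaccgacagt
The Vegfa window held 2 GC boxes and no match to the other motifs. RefSeq gives Vegfa another start, which lies 7214 bases inside the gene as counted. Its window of 300 bases (chr17:46025114-46025413, not printed) is therefore within the gene, not before it. That window held 2 hypoxia cores and 1 GC box, and among RefSeq windows of 300 bases 43.8% held a hypoxia core and 35.7% a GC box. The Zfp36 window held 1 GC box, 1 hypoxia core and 1 CArG box. Among 32851 RefSeq promoter windows of 250 bases, 32.7% held a GC box, 38.6% a hypoxia core, 17.6% the E-box and 1.47% a CArG box. A match is only a run of letters, and its absence says nothing of the factor.

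Vegfb (chromosome 19, 6982473 to 6987651), a ligand of VEGFR1, was 60.9 to 102 CPM in Mertk WT, 93.1 to 109 in Mertk KO, 74.3 to 93.4 in Bai1 Tg neg and 77.0 to 82.7 in Bai1 Tg pos. Its lowest value was in Mertk WT 2. Pgf (chromosome 12, 85166639 to 85177296), placental growth factor, was 10.6 to 18.4 CPM in the Mertk libraries and 13.6 to 23.5 CPM in the Bai1 libraries. Its highest value, 23.5 CPM, stood alone in Bai1 Tg pos 1, where the other 2 libraries of the group were at 13.7. Vegfa made up 71.7 to 80.8% of the summed TPM of the 4 ligands, with a median of 77.4%, and Vegfb 12.2 to 20.7%.

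Among the receptors, Nrp2 (chromosome 1, 62703285 to 62818695), a co-receptor for VEGF-C and for class 3 semaphorins, was at 31.3 to 59.9 CPM. Kdr (chromosome 5, 75932827 to 75978458), VEGFR2, was at 4.60 to 12.2 CPM, which is 78 to 228 counts. Flt1 (chromosome 5, 147561604 to 147726011), VEGFR1, was at 2.26 to 10.3 CPM and varied widely within groups. In Mertk KO it was 8.86, 2.95, 8.45 and 3.18 CPM in replicates 1 to 4, and its coefficient of variation within groups was 42.1% against 10.6% from counting. Nrp1 (chromosome 8, 128359073 to 128505462), a co-receptor of VEGF-A, had 0 counts in Mertk WT 3 and Bai1 Tg pos 3 and 40 counts at most. In TPM, Nrp2 exceeded Kdr by 2.39 to 9.87 times and Flt1 was 0.127 to 0.887 times Kdr. An exon of Nrp1 shares 80 bases with the microRNA gene Mir1903, which had 0 counts. Gm29083 and Gm37121 lie within the span of Nrp2, share no exon bases with it and had 10 and 20 counts over all libraries.

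In mean TPM, each of the 4 receptors was above most of the endothelium markers. Ramp2, at a mean of 122 TPM, was above all 4 receptors, and Egfl7, at 2.55 TPM, was near Kdr and above the mean of Flt1. Pecam1 and Cdh5 averaged 0.131 and 0.134 TPM, against 2.85 for Kdr and 1.26 for Flt1. Plvap was at 1.12 TPM, and Erg and Sox17 had 0 counts in all libraries. The summed level of the marker list, most of it Ramp2, was 121 to 203 CPM in Mertk WT, 95.9 to 159.7 in Mertk KO, 127 to 153 in Bai1 Tg neg and 126 to 165 in Bai1 Tg pos. Nrp1 was highest in 3 libraries that also had counts of Cdh5. Mertk WT 4 had 2.81 CPM of Nrp1 and 0.937 of Cdh5, Bai1 Tg pos 2 had 2.38 and 0.476, and Mertk KO 3 had 1.66 and 0.346. Mertk WT 1, with Cdh5 at 0.471 CPM, had Nrp1 at 0.0673. Other markers did not all follow: Tie1, Tek and Vwf were at 0 TPM in Bai1 Tg pos 2. They were at 0.442, 0.396 and 0.155 TPM in Mertk WT 4 and at 0.162, 0.0846 and 0.0992 TPM in Mertk KO 3. In such bulk samples, fewer cells of a type and less RNA per cell cannot be told apart.

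**Figure D2:**
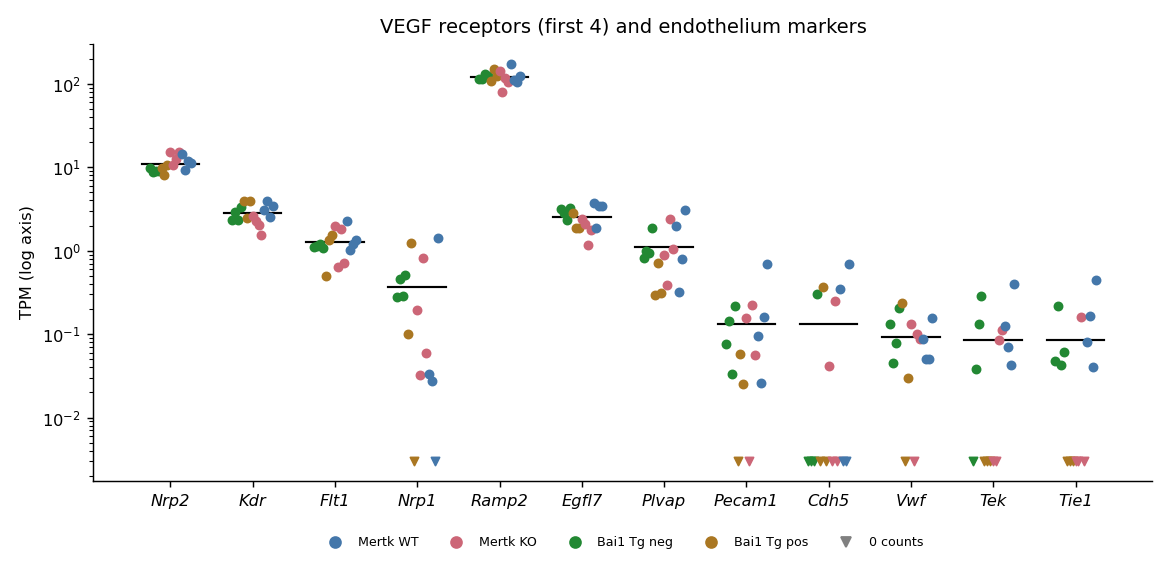
TPM on a log axis (y) of the 4 VEGF receptors and co-receptors and of 8 endothelium markers (x), with 1 point per library coloured by group, triangles for 0 counts and bars for the mean. Ramp2, at 122 TPM, lies above all 4 receptors and Egfl7, at 2.55, near Kdr, while Pecam1 and Cdh5 lie below Kdr and Flt1, with Cdh5 at 0 in 9 of 15 libraries.

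Serpinf1 (ENSMUSG00000000753, chromosome 11, 75409769 to 75422701, minus strand) encodes PEDF, the secreted inhibitor of vessel growth. It was 4.57, 2.07, 4.34 and 3.64 CPM in Mertk WT, 3.97, 4.90, 5.12 and 4.89 in Mertk KO, 3.00, 4.47, 4.97 and 2.45 in Bai1 Tg neg, and 4.61, 4.88 and 3.26 in Bai1 Tg pos. The groups overlapped, and the values rest on 35 to 83 counts per library. The TPM of Vegfa was 114 to 277 times that of Serpinf1, with a median of 145. The window before the start of Serpinf1 (chr11:75422624-75422873, minus) is shown with that of Kdr (chr5:75978456-75978705, minus), whose level differed most between Mertk groups. The RefSeq start of Serpinf1 lies 78 bases inside the gene as counted, so its window includes that stretch. Capitals mark the same motifs.
Serpinf1: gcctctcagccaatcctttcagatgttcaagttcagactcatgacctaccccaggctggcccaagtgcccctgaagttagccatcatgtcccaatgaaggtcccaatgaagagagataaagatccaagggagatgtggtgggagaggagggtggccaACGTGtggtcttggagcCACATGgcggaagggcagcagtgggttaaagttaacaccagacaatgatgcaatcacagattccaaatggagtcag
Kdr: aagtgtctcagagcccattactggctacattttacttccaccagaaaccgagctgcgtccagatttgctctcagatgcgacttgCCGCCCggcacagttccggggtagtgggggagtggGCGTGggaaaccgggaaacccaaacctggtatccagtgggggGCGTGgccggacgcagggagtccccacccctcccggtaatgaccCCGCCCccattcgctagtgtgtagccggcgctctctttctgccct
The Serpinf1 window held no GC box, 1 hypoxia core and 1 E-box, and 51.6% of its bases were G or C. The Kdr window held 2 GC boxes and 2 hypoxia cores, with 61.6% G or C.

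Between Mertk KO and Mertk WT, no member passed the test, and Kdr was the member that differed most. Of the 9 members, 8 were tested and Nrp1 was below the filter on low counts. None of the 8 had an adjusted p under 0.05 by edgeR, while 30 of all 13447 genes tested did, which is 0.223%. DESeq2 and limma-voom also called 0 of 8. An unadjusted p under 0.05 was found for 1 member, Kdr, and for 750 genes in all. None of the 8 had groups that did not overlap, against 3.52% of all genes tested.

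Kdr was 9.55, 11.9, 7.68 and 10.3 CPM in Mertk WT and 7.68, 7.05, 6.37 and 4.60 CPM in Mertk KO. The groups met at 7.68 CPM, the lowest Mertk WT and the highest Mertk KO library. The log2 fold change was -0.62 (SE 0.20, 95% CI -1.05 to -0.19), with an unadjusted p of 0.00778 and an adjusted p of 0.545 in the edgeR fit. In the libraries of tag number 17 alone, replicates 1 to 3 of both groups, it was -0.46. The ratio of Vegfa to Kdr uses the same Kdr values and is not a separate result. In TPM it was 185 to 309 in Mertk WT and 296 to 463 in Mertk KO. Of 3 endothelium markers tested, all were below 0, with a median of -0.32 and none past the threshold, and Egfl7 was at -0.74. The part of endothelium in the Kdr value was not tested beyond the covariate fit. With the endothelium marker level as a covariate, and in each of the other alternatives, the log2 fold change of Kdr lay between -0.72 and -0.46. Only 2 of the 16 markers averaged in that covariate had a median of at least 1 CPM, so the covariate fit could not decide the part of endothelium.

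No ligand passed, and the interval of each included 0. The log2 fold change was 0.14 for Vegfa (95% CI -0.09 to 0.37), 0.17 for Vegfb (-0.15 to 0.49), -0.19 for Vegfc (-0.58 to 0.19) and 0.12 for Pgf (-0.31 to 0.54). These small values moved with single libraries: without Mertk WT 2 Vegfb was 0.0216, without Mertk WT 3 Vegfc was -0.0386, and without Mertk WT 1 Pgf was 0.0134. Rod markers were below 0 for 14 of 15 genes in this comparison, with a median of -0.59 and none past the threshold. With their level as a covariate, Vegfb was 0.0706, Vegfc -0.0717 and Vegfa 0.14. Serpinf1 had a log2 fold change of 0.37 (-0.21 to 0.94) and Nrp2 of 0.18 (-0.12 to 0.49). Flt1 was at -0.18 with a wide interval, -1.10 to 0.74. The median log2 fold change of the 4 ligands was 0.13 and that of the 3 tested receptors -0.18, beside 0.00 over all genes tested.

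**Figure D3:**
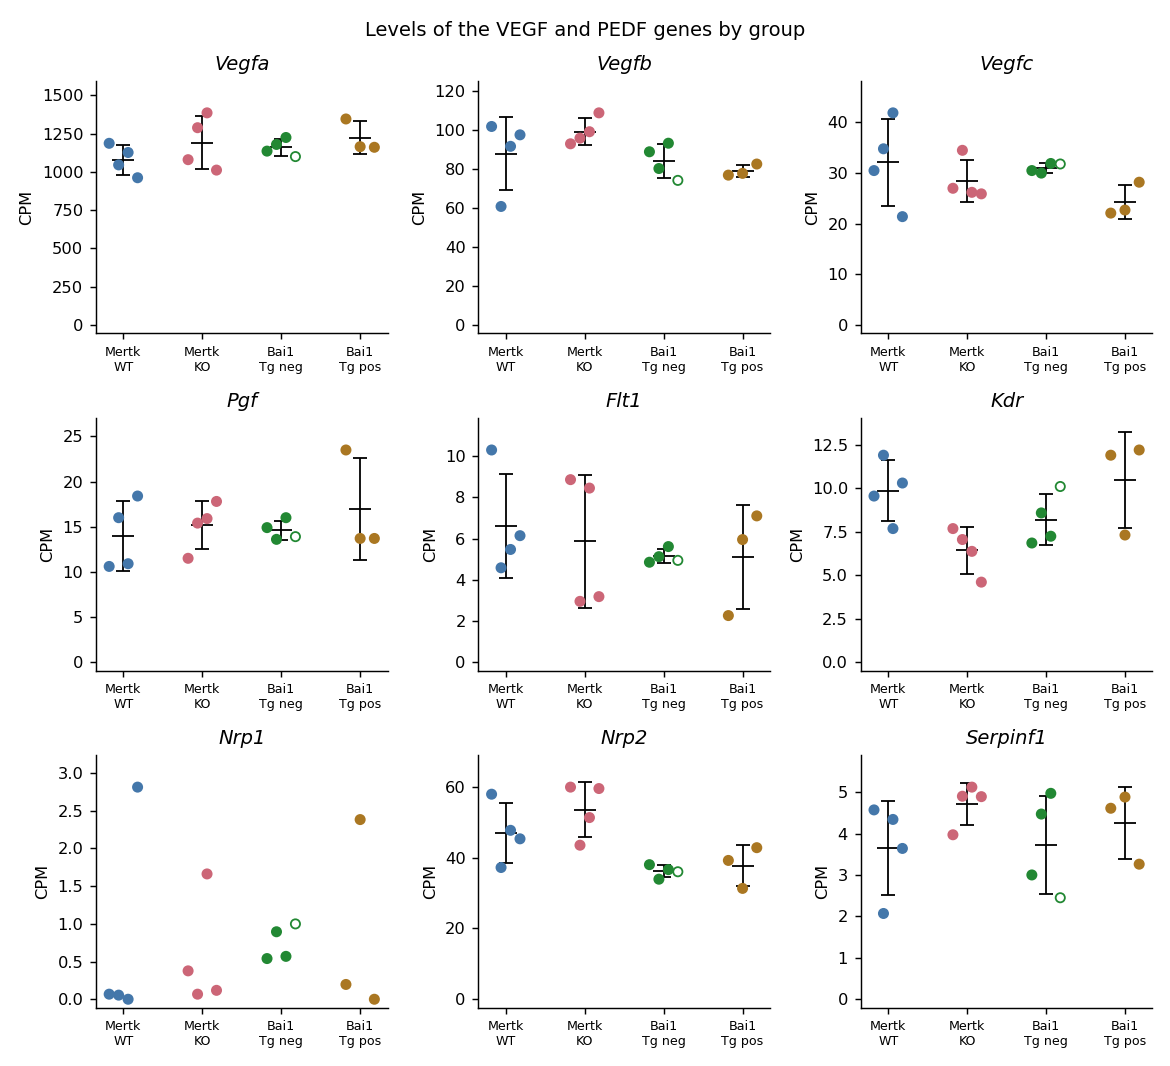
CPM (y) of each member by group (x), each library drawn as a point, with means and SDs as bars (none for Nrp1, which had 0 counts in some libraries) and an open circle for Bai1 Tg neg 4, whose Adgrb1 goes against its label. The Kdr points of Mertk KO, 4.60 to 7.68 CPM, lie at or below those of Mertk WT, and the Vegfc points of Bai1 Tg pos lie below those of Bai1 Tg neg.

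Between Bai1 Tg pos and Bai1 Tg neg, Vegfc was lower in every Bai1 Tg pos library, but neither it nor any other member passed the test. All 9 members were tested. None had an adjusted p under 0.05 by edgeR, while 2 of 13855 genes did (0.0144%), and DESeq2 and limma-voom called 0 of 9. Unadjusted, 1 member and 718 genes had a p under 0.05. Groups as labelled did not overlap for 1 of 9 members, Vegfc, against 6.20% of all genes tested.

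Vegfc (chromosome 8, 54077532 to 54186454), the lymphatic growth factor, was 30.5, 30.0, 31.9 and 31.8 CPM in Bai1 Tg neg and 22.1, 22.7 and 28.2 CPM in Bai1 Tg pos. The log2 fold change was -0.34 (SE 0.12, 95% CI -0.59 to -0.10), with an unadjusted p of 0.01005 and an adjusted p of 0.948 by edgeR. Without the library labelled Bai1 Tg neg 4, it was -0.33. That library had Adgrb1 at 144 CPM, near the Bai1 Tg pos level, and Vegfc at 31.8 CPM, among the other Bai1 Tg neg values. Grouped by Adgrb1 level instead of label, the Vegfc values would overlap. The 4 Mertk WT libraries, at 30.5, 34.8, 41.9 and 21.4 CPM, spanned the values of both Bai1 groups. Kdr was 6.85, 8.58, 7.24 and 10.1 CPM in Bai1 Tg neg and 11.9, 7.31 and 12.2 CPM in Bai1 Tg pos. Its groups overlapped, and its log2 fold change was 0.35 (95% CI -0.13 to 0.83), or 0.47 without the library labelled Bai1 Tg neg 4. Over 15 alternatives it ran from 0.13 with limma-voom to 0.55 without Bai1 Tg pos 2. For Vegfa, the log2 fold change was 0.08 (95% CI -0.07 to 0.23), or 0.00384 without Bai1 Tg pos 1, and for Serpinf1 it was 0.19 (-0.51 to 0.90), or 0.03 without the library labelled Bai1 Tg neg 4. Rod markers had a median log2 fold change of 1.02 in the same comparison, with 0 of 15 past the threshold. With the rod marker level as a covariate, Vegfc was -0.29, Kdr 0.49, Vegfa 0.0548 and Serpinf1 -0.0451.

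The difference between the Bai1 effect and the Mertk effect was tested in a fit of all 15 libraries, in which 15 of 14520 genes (0.103%) passed. No member was among them by edgeR, and 1 member and 1093 genes had an unadjusted p under 0.05. Kdr had the smallest unadjusted p, 0.00467, with a difference of 0.97 on the log2 scale (SE 0.30, 95% CI 0.33 to 1.60) and an adjusted p of 0.356 by edgeR. The difference was 1.09 without the library labelled Bai1 Tg neg 4, and over 17 alternatives (RLE size factors, no filter on low counts, each library left out) the lowest adjusted p was 0.18. DESeq2 and limma-voom were not run for this difference. The intervals of the other members all included 0.

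**Figure D4:**
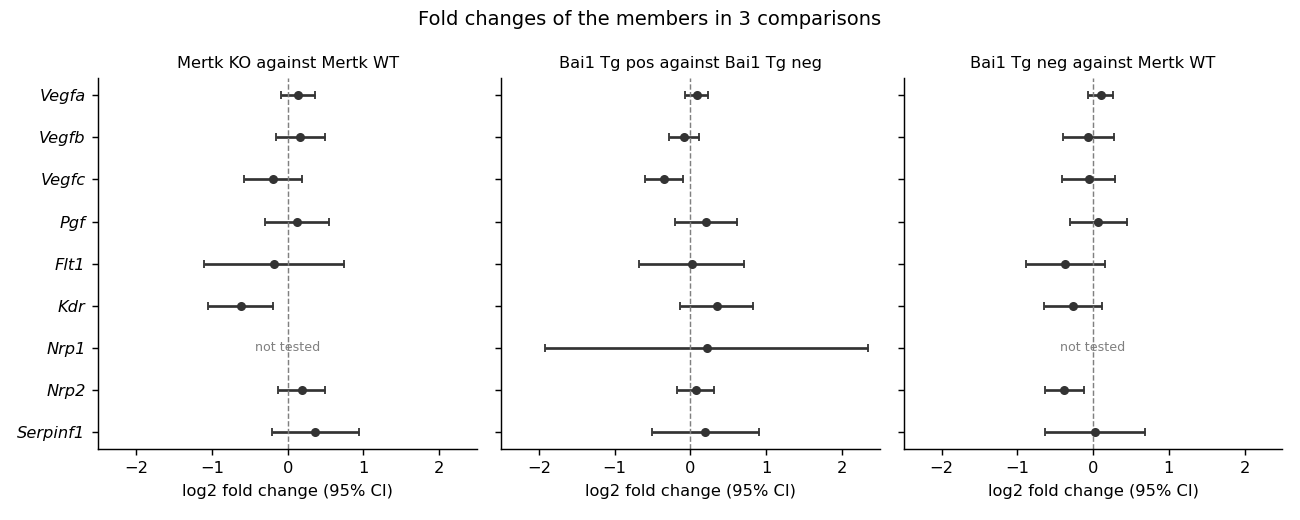
Log2 fold changes (x, points) with 95% confidence intervals (bars) of the 9 members (y) in 3 comparisons, from edgeR. Kdr lies below 0 in Mertk KO, Vegfc in Bai1 Tg pos and Nrp2 in Bai1 Tg neg, all without passing the adjusted threshold, and Nrp1 could be tested in 1 comparison only.

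The control groups of both sets, Bai1 Tg neg and Mertk WT, were compared to see how far members differ without a labelled change of genotype. The tag numbers differ between the sets, so set and group cannot be told apart. Nrp2 differed most, with a mean of 36.2 ± 1.72 CPM in Bai1 Tg neg and 47.0 ± 8.54 in Mertk WT (SD, n = 4 each). Its Mertk WT values were 57.9, 37.2, 47.7 and 45.3 CPM, and replicates 2 to 4 of Bai1 Tg neg were at 33.9, 36.6 and 36.0. The groups overlapped only at Mertk WT 2 and Bai1 Tg neg 1. The log2 fold change was -0.38 (SE 0.12, 95% CI -0.63 to -0.12), with an adjusted p of 0.293 by edgeR, and it was -0.38 without the library labelled Bai1 Tg neg 4. Without Mertk WT 2 it was -0.48, and its adjusted p of 0.037 passed the threshold. Mertk WT 2 was also the library with the highest rod marker level, 7.21. With the rod marker level as a covariate Nrp2 was -0.81, with an adjusted p of 0.59 by edgeR. That level was 2.85 to 4.30 in Bai1 Tg neg and 5.34 to 7.21 in Mertk WT, without overlap. The fit with it therefore could not tell rod level from group. Of 8 members tested, none passed, against 58 of 13459 genes (0.431%), and DESeq2 and limma-voom called 0 of 8. Unadjusted, 1 member and 1076 genes had a p under 0.05. None of the 8 had groups that did not overlap, against 5.74% of all genes tested. Rod markers were lower in Bai1 Tg neg by a median log2 fold change of -3.74, with 2 of 15 past the threshold, while Vegfa differed by 0.10 (95% CI -0.06 to 0.27) and Serpinf1 by 0.03 (-0.63 to 0.69).

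Other genes of the pathway were counted by list. By edgeR, no gene of the 8 lists below passed the threshold in the Mertk, the Bai1 or the control comparison. Among 12 genes of the rest of the VEGF family and of VEGF-C processing, 6 had a median of at least 1 CPM, led by the proteases Mmp14 at 34.3 TPM and Mmp2 at 14.4. Flt4, which encodes the VEGF-C receptor VEGFR3, was at 0.0446 TPM and Vegfd at 2.75. Plau, the urokinase protease, is named after its values were seen. It was 2.94, 5.59 and 0.855 CPM in Bai1 Tg pos and 0.231 to 0.499 CPM in Bai1 Tg neg, with a log2 fold change of 3.26 and an adjusted p of 0.384 by edgeR. Of the pericyte and smooth muscle markers, Acta2 was 208 to 284 CPM in Bai1 Tg pos and 162 to 198 in Bai1 Tg neg. Myh11 was 0.374 to 97.2 and 0.355 to 1.31 CPM in these groups. Pdgfrb and Notch3 were not higher in Bai1 Tg pos, with means of 25.5 and 11.4 CPM against 26.4 and 11.7. Of 7 pericyte and smooth muscle markers tested, 5 were above 0, with a median of 0.40 and none past the threshold, and their part in the Plau value was not tested. The summed level of that list of 10 was 341 to 517 CPM in Bai1 Tg pos and 268 to 318 in Bai1 Tg neg.

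Of 14 semaphorins, plexins and partners of neuropilins, 9 were tested in the Mertk comparison, 5 above and 4 below 0. The ligands Sema3b and Sema3c were abundant at 495 and 388 TPM, far above the neuropilins. Sema3c, a class 3 semaphorin, was 972, 1107, 906 and 869.7 CPM in Mertk WT and 897, 692, 734 and 639.8 CPM in Mertk KO. The groups overlapped through Mertk KO 1, and the edgeR log2 fold change was -0.39, adjusted p = 0.412. Plxna1, a plexin that forms semaphorin receptors with neuropilins and was named after its values were seen, was higher in every Mertk KO library. It was 351 to 429 CPM there and 243 to 311 CPM in Mertk WT, with a log2 fold change of 0.47 (SE 0.10) and an adjusted p of 0.112.

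Hypoxia-inducible factors drive Vegfa in many tissues. Of 16 genes of this factor and of oxygen sensing, 15 were tested in the Mertk comparison, 8 above and 7 below 0, with a median of 0.03. Epas1, which encodes HIF-2α, was at 687 TPM and Hif1a at 133. Epas1 was 1191 to 1367 CPM in Mertk WT and 1009 to 1185 CPM in Mertk KO, with a log2 fold change of -0.21 and an adjusted p of 0.737 by edgeR. Elob, a subunit of the ligase that degrades these factors, was 109 to 179 CPM in Mertk WT and 179.7 to 223 CPM in Mertk KO (edgeR log2 fold change 0.42, adjusted p = 0.733). Of 30 hypoxia-induced genes, 28 were tested, 13 above and 15 below 0, with a median of -0.02 (Aldoa and Slc2a1 were highest, at 2285 and 2171 TPM). Of 45 genes of signalling below the VEGF receptors, 42 were tested, 21 on each side of 0, led by Hspb1 and Cdc42 at 429.8 and 289.6 TPM. In the Bai1 comparison the medians of these 3 lists were 0.06, 0.03 and 0.01. Between the control groups, 8 of 27 hypoxia-induced genes were above and 19 below 0, with a median of -0.11 beside 0.00 over all genes.

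Of 6 proteins reported as PEDF receptors or partners, Atp5b, a subunit of ATP synthase, and Rpsa, the laminin receptor, were highest at 807 and 204 TPM, and none of the 5 tested passed in any comparison. Among 20 other inhibitors of vessel growth, Timp3 and Thbs1 were at 1375 and 1367 TPM, above Vegfa and far above Serpinf1. Thbs1, thrombospondin 1, was 2186, 3138, 2928 and 2157 CPM in Mertk WT and 3254, 4042, 3502 and 3408 CPM in Mertk KO. The groups did not overlap, and the log2 fold change was 0.44 (SE 0.12) with an adjusted p of 0.437 by edgeR. The summed level of the list was 11841 to 12683 CPM in Mertk WT and 13144 to 14326 CPM in Mertk KO, a sum that Timp3 and Thbs1 dominate. Of its 13 tested genes, 10 were above and 3 below 0. Of 30 other angiogenic factors and receptors, 21 were tested in the Mertk comparison, 12 above and 9 below 0, and Ccn1 and Bmp4 were highest at 2436 and 543 TPM.

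The genes whose deviations from their group means were most like those of a member were sought among 14520 genes over 15 libraries. Each is the highest of that number, so Pearson's r is given as a description and with no p. For Vegfa these were Zfp36 (r = 0.933), Tob2 (0.928) and Hbegf (0.921). Zfp36, an RNA-binding protein gene, was 119 to 329.9 CPM over the libraries, Tob2 was 94.1 to 143 and Hbegf was 1.98 to 9.42. For Vegfa, the Mertk KO values in replicates 1 to 4 were 1080.1, 1289, 1386 and 1012 CPM. Zfp36 there was 160.2, 215, 249.6 and 119 CPM, highest and lowest in the same libraries as Vegfa. For Serpinf1 they were Gdf15 (0.906), Sf1 (0.9) and Zfp213 (0.898), and for Kdr they were Sync (0.9), Ift46 (0.896) and Ppa1 (0.858). Without the 2 libraries farthest from the median of the member, r was 0.905 for Zfp36, 0.848 for Gdf15 and 0.807 for Sync. Mertk KO 4 and Mertk WT 4, both of tag number 21, were each the lowest of their group in Vegfa and in Zfp36. Deviations were taken from group means only, so a difference between tag numbers can enter r, which was not tested. Libraries also share depth and composition across genes, so such values do not speak to single pairs.

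**Figure D5:**
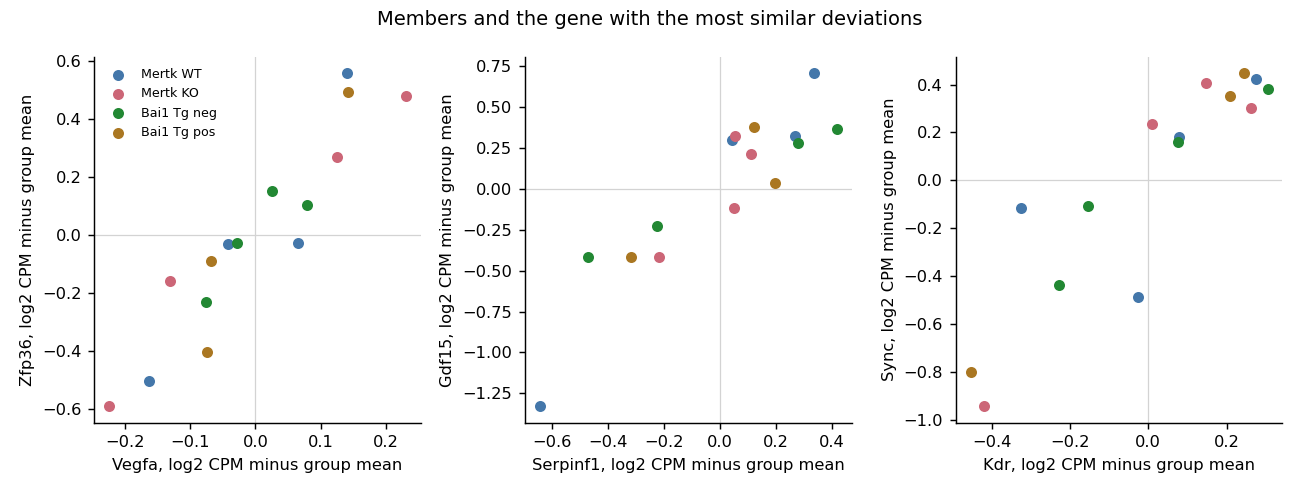
Log2 CPM minus the group mean of Vegfa, Serpinf1 and Kdr (x) against Zfp36, Gdf15 and Sync (y), with 1 point per library coloured by group. Libraries high in the member tend to be high in the other gene, with r of 0.933, 0.906 and 0.9 over 15 libraries.

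Members were also set against the mean log2 CPM of the endothelium and rod marker lists, within the 8 Mertk and the 7 Bai1 libraries, in 36 relations. Each set pooled both of its groups without removing group means, so a difference between groups can enter r. None had an adjusted p under 0.05 in an exact two-sided permutation test of Pearson's r, and 2 had an unadjusted p under 0.05. Vegfb was lower where rod markers were higher in the Mertk libraries, with r = -0.836 (exact permutation p = 0.00188, adjusted 0.0679) and Spearman's rho = -0.905 (p = 0.00456, adjusted 0.164). Without the 2 libraries of most extreme rod level, r was -0.747. Nrp1 and the endothelium list had r = 0.846 in the Mertk libraries (exact permutation p = 0.0219, adjusted 0.394) and rho = 0.619 (p = 0.115, adjusted 0.778). Without the 2 most extreme libraries r was 0.0422, so this relation rested on them.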

How the data were processed

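The authors deposited raw counts per gene for 15 libraries. Per the file header they were made with featureCounts 1.5.0 from read pairs with both ends mapped, summing exons per gene and ignoring strand. Reads had been aligned with STAR to GRCm38, per the submitters' processing notes, and poly-A RNA was sequenced after RNeasy extraction and TruSeq preparation, per the labels' protocols. Not given in the sources used here: STAR's version and the gene annotation's release. A symbol was found for 45143 of 46078 genes, holding 99.91% of counts.

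Groups came from the sample labels. Each comparison was fitted across all genes passing edgeR's low-count filter with edgeR 4.0.16 (TMM, quasi-likelihood test, Benjamini-Hochberg adjustment, threshold 0.05) in R 4.3.3. The fits of the Mertk, Bai1 and control comparisons were tested on simulated data, but the fit of the difference of effects was not. Alternatives were DESeq2 1.42.0, limma 3.58.1 (voom), no filter, a replicate block, marker covariates, all libraries in 1 fit and each library left out; the subset of tag number 17 was chosen after seeing the data. Marker relations used scipy 1.17.1 on log2 CPM with a pseudocount of 0.5. Floors of 3 counts cover counting error only.

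Named genes were the members, label and cell type checks, the 2 highest of each list by TPM, and the 3 genes most like Vegfa, Serpinf1 and Kdr. Plau, Plxna1, Hif1a, Flt4, Vegfd and the single markers beside a result were named outside this rule, after their values were seen. The members and lists were chosen with earlier results of these data known.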

Additional observations from a re-analysis of the deposited data

Results flagged for a closer look

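Among 27 sets of values, each a member in a group of 4 libraries, examined for a single library far from the rest, 2 were marked, and chance marks about 1 in 20 such groups. Vegfc was 34.5 CPM in Mertk KO 2, while the other Mertk KO libraries were at 25.9 to 27.0 CPM. Nrp1 was 2.81 CPM in Mertk WT 4, while the other Mertk WT libraries were at 0 to 0.0673 CPM. Mertk WT 4 also had the highest endothelium marker level, a mean log2 CPM of 0.71, and the part of endothelium in its Nrp1 value was not tested.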

How the results depend on the processing

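No member was called in any alternative, except Nrp2 between the control groups without Mertk WT 2 (-0.48, adjusted p = 0.037 by edgeR), so that 0 to 1 members passed there with 1 library left out. Over 17 alternatives the Mertk log2 fold change of Kdr was -0.72 to -0.46, and over 15 the Bai1 log2 fold change of Vegfc was -0.47 to -0.29.

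The number of genes called between Mertk KO and Mertk WT, 30, was 74 with DESeq2, 69 without the filter, 14 in tag number 17 alone (chosen after seeing the data), and 16 to 31 with 1 library left out (16 without Mertk KO 4). The 2 genes of the Bai1 comparison became 21 with DESeq2, 85 without the filter, 0 in the fit of all 15 libraries, 0 with limma-voom, 1 with the rod covariate and 0 to 54 with 1 library left out (54 without Bai1 Tg pos 3). The 58 between control groups became 221 with DESeq2, 138 without the filter, 106 with limma-voom, 107 with the endothelium covariate, 0 with the rod covariate and 13 to 89 with 1 library left out (13, 15 and 28 without Bai1 Tg neg 1, 2 and 4, 88 and 89 without Mertk WT 1 and 4). The 15 of the difference of effects became 37 without the filter and 12 to 31 with 1 library left out (31 without Bai1 Tg pos 3, 26 without Mertk WT 1). The cause was not tested. Between the control groups the rod marker level did not overlap, so fits with that covariate could not tell it from group.

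Directions turned for low members. In the Mertk comparison Flt1 was 0.0151 with the endothelium covariate and -0.45 to 0.13 with 1 library left out. In the Bai1 comparison Flt1 was -0.21 with the endothelium covariate, Nrp1 -0.60 and Nrp2 -0.0154 with limma-voom, and Nrp1 -2.47 and Serpinf1 -0.0451 with the rod covariate. With 1 library left out there, Pgf was -0.0904 to 0.34, Flt1 -0.29 to 0.35, Nrp1 -3.16 to 0.82 and Nrp2 -0.0359 to 0.19. Between control groups Serpinf1 was -0.0620 with limma-voom and -0.15 with the rod covariate, and Vegfc 0.58 with the latter. With 1 library left out there, Vegfb was -0.21 to 0.0176, Vegfc -0.20 to 0.0947, Pgf -0.0393 to 0.22 and Serpinf1 -0.18 to 0.19.

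Replicates 4 of Mertk KO and Mertk WT share tag number 21 and replicates 1 to 3 tag number 17, whose meaning is not given. Deviations of same-numbered libraries correlated at -0.147 to 0.267 in the Mertk comparison, 0.267 for replicates 4, so the numbers were not taken to pair libraries. With the replicate number as a block, 24, 4 and 106 genes were called in the Mertk, Bai1 and control comparisons, no member among them, and in the Bai1 comparison Flt1 was -0.13 and Nrp1 -0.79. Serpinf1 had 35 to 83 counts and Nrp1 at most 40. Their coefficients of variation within groups were 23.8% and 140.4%, and counting error alone would give 12.7% and 31.1%.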
